A study of Mus musculus with 10 samples.

Results

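The genes described here are the subunits of the MCM replicative helicase, Mcm2 to Mcm7, and 4 genes that act with them at replication origins, Mcm10, Cdc6, Cdt1 and Gins2. Every probe whose accession maps to one of these 10 symbols was taken, which gave 11 of the 39429 probes on the array. Of these 11 probes, 10 passed the filter on dim spots, 1 for each gene, among 26877 probes kept in all and 22016 genes or transcripts tested. Mcm6 was chosen for its pattern in these samples, so its values are given as a description with no test.

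The hearts came from male mice given aldosterone, the salt-retaining hormone of the adrenal cortex and a ligand of the mineralocorticoid receptor, or left untreated, with 5 hearts in each group. The treatment duration in the labels is 7 days for both groups, and each sample is labelled with a mouse of its own. The sample titles of both groups carry the word Ctrl, with aldosterone added for the treated hearts, and strain, genotype and age are not further given in the sources used here. Ventricle RNA was labelled with Cy5 and hybridised to 2-colour Agilent arrays against Cy3-labelled RNA pooled from liver, brain, heart, kidney and spleen. Every level below is a log2 ratio of heart over that pool, so the level of one gene cannot be set against the level of another. A difference is the aldosterone mean minus the untreated mean of these log2 ratios. The authors' deposited value table covers all 10 hearts, and scanner files were used for 9 of them, because aldosterone 4 has values in the table alone.

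Licensing prepares a chromosome for replication. The origin recognition complex, with Cdc6 and Cdt1, loads rings of Mcm2 to Mcm7 onto DNA before S phase, and the rings stay inactive until kinases, Mcm10, Cdc45 and the GINS complex turn them into moving helicases. Most of these genes are known targets of E2F transcription factors in cycling cells. Cardiomyocytes of the adult mouse heart rarely replicate their DNA in a regular cell cycle, so licensing genes are textbook markers of the proliferating cells in the tissue.

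E2F sites are what these promoters are best known for, so the stretches before the annotated starts are shown first. They were taken from RefSeq on GRCm38.p6, which matched 8 of the 10 genes with 9 promoter entries, and Mcm4 and Gins2 had no entry. The letters searched on either strand were TTTCGCGC, TTTGGCGC, TTTCCCGC and TTTGCCGC, and matches are in capitals. Mcm5, Mcm6, Mcm7 and Cdc6 held a match before the start of an entry, and Mcm2 and Mcm10 held none and are shown for contrast. For Mcm7 this was the entry shown, and its other entry held no E2F letters. The stretches of Cdc6 and Mcm7 lie before the start of their entry but inside the annotated span of the gene.
Mcm6 (chr1:128359706-128359855, minus strand): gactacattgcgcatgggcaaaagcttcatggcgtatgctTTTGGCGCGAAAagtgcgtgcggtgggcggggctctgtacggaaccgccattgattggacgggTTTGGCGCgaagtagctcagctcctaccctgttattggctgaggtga
Mcm5 (chr8:75109329-75109408, plus strand): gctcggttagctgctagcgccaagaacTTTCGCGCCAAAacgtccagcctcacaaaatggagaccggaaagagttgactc
Mcm7 (chr5:138172004-138172083, minus strand): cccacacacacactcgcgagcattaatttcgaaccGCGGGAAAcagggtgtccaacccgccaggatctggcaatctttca
Cdc6 (chr11:98907981-98908060, plus strand): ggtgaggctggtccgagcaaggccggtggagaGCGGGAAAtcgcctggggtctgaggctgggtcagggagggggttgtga
Mcm2 (chr6:88898781-88898930, minus strand): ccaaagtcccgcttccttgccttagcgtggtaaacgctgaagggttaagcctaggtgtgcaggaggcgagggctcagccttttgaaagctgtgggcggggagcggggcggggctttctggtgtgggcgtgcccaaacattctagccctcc
Mcm10 (chr2:5012792-5012941, minus strand): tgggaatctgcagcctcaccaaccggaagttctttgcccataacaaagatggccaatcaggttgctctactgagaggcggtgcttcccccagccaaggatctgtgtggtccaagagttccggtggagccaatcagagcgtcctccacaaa
Mcm6 held 3 matches, of which 2 overlap each other to form the first block of capitals, at 110 and 106 bases before the start, and the third lay 47 bases before it. In Mcm5 the block is likewise 2 overlapping matches, at 153 and 149 bases before the start. Mcm3 and Cdt1 matched only after the start, and those stretches are not printed. In all, 6 of the 9 promoter entries held the E2F letters, against 2.26% of 32851 promoters of the same length. The letters CCAAT occurred on either strand in 7 of the 9 entries, against 37.4% of all promoters. The CHR letters TTTGAA or TTCGAA, an element known from promoters of mitotic genes, occurred in 2 of the 9 entries, against 19.2% of all promoters. Among 10 entries of a comparison list of mitotic genes E2F letters occurred in 1, CCAAT in 9 and CHR letters in 8. A letter match describes the sequence and shows no binding in these hearts.

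On the 9 arrays, 64.3% to 70.9% of probes had a Cy5 signal well above background, and the median Cy5 signal was 118.5 to 146.25 units over local backgrounds with medians of 57 to 59. Clustering on the tested genes outside the lists split the 10 hearts into 2 sets that cross the groups. Set 1 held aldosterone 3 and 5 with untreated 1, 3 and 4, and set 2 held aldosterone 1, 2 and 4 with untreated 2 and 5. Each of 4 slides carried 1 aldosterone array and 1 or 2 untreated arrays. Aldosterone arrays lay at position 2 and untreated arrays at position 1 or 4, so position and treatment cannot be told apart. On untreated 1 a few spots had stray local backgrounds of up to 11739.5 units, which were replaced before correction.

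Mcm6 had the largest difference between the groups among the 10 genes. Its product is one subunit of the helicase ring. In the value table its log2 ratio was -1.87, -1.95, -2.11, -2.08 and -1.93 in aldosterone hearts 1 to 5, against -3.43, -2.99, -2.58, -3.20 and -2.79 in untreated hearts 1 to 5. Every aldosterone heart lay above every untreated heart, and the untreated hearts were more spread out. The means were -1.99 ± 0.10 with aldosterone and -3.00 ± 0.33 without (SD, n = 5 each), a difference of 1.01 (SE 0.15), or 2.01-fold. The scanner files gave -2.02, -2.11, -2.30 and -2.09 in aldosterone hearts 1, 2, 3 and 5, against -3.51, -3.15, -2.79, -3.33 and -2.92 in the 5 untreated hearts, again a difference of 1.01 (SE 0.14). The spot was bright in the heart channel itself. Its Cy5 signal was 1170, 1364, 1389 and 1345 units on the aldosterone arrays and 439, 658, 1069, 543 and 675 units on the untreated arrays. In these units the aldosterone arrays were alike, while the brightest untreated array, untreated 3, came close to them. The units are not normalised between arrays, and the median Cy5 signal was 140 on untreated 3 and 118.5 on aldosterone 1. As a log2 ratio untreated 3 lay further off, at -2.58 against -2.11 in the lowest aldosterone heart of the value table. The difference was above 0 on 4 of 4 slides, from 0.63 to 1.34 in the value table. It was 1.05 within set 1 and 0.93 within set 2.

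**Figure D1:**
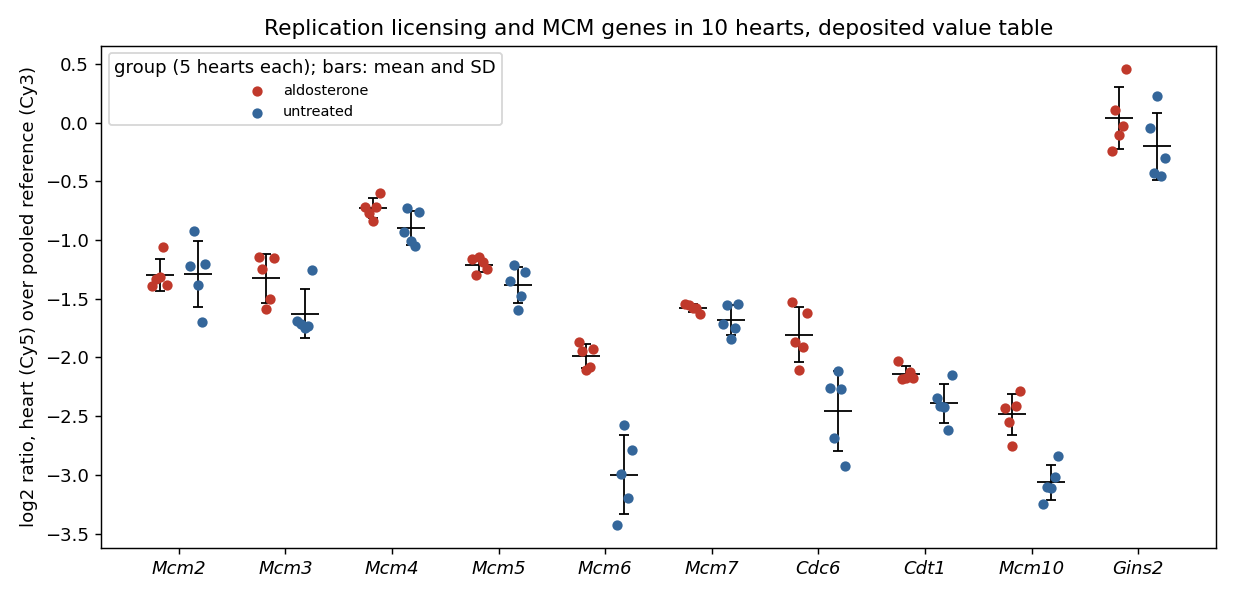
Log2 ratio of heart over pooled reference (vertical axis) for each of the 10 genes in the deposited value table, with 5 aldosterone hearts in red to the left and 5 untreated hearts in blue to the right of each pair; bars are mean and SD. Mcm6 and Mcm10 stand apart between the groups, Cdc6 does so only by the third decimal, and the points of the other 7 genes overlap.

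The other 5 ring subunits did not share that gap, and none passed the test across all genes. Mcm3, the subunit next in size of difference, had -1.14, -1.25, -1.59, -1.50 and -1.15 in aldosterone hearts 1 to 5, against -1.69, -1.72, -1.75, -1.73 and -1.26 in untreated hearts 1 to 5. Untreated hearts 1 to 4 lay together below every aldosterone heart, and untreated 5 lay among the aldosterone hearts. The difference was 0.30 (SE 0.13, limma adjusted p = 0.568) in the value table and 0.31 (SE 0.12, limma adjusted p = 0.719) in the scanner files.

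Mcm4 had -0.72, -0.77, -0.84, -0.72 and -0.60 in aldosterone hearts 1 to 5, against -0.93, -0.73, -1.01, -1.05 and -0.76 in untreated hearts 1 to 5. Untreated 2 and 5 fell within the aldosterone range. Mcm5 had -1.16, -1.30, -1.15, -1.19 and -1.25 in aldosterone hearts, against -1.35, -1.21, -1.59, -1.48 and -1.27 in untreated hearts, and the same pair of untreated hearts overlapped. Mcm7 had -1.55, -1.56, -1.58, -1.57 and -1.63 in aldosterone hearts, against -1.71, -1.55, -1.85, -1.75 and -1.55 in untreated hearts, where untreated 2 and 5 again sat with the aldosterone hearts. In the value table the differences were 0.17 (SE 0.08) for Mcm4, 0.17 (SE 0.08) for Mcm5 and 0.10 (SE 0.07) for Mcm7, with limma adjusted p of 0.648, 0.625 and 0.769. The scanner files gave 0.18, 0.16 and 0.10, with limma adjusted p of 0.910, 0.868 and 0.987.

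The set of hearts went with the size of the difference, for these 3 subunits and for the rest of the ring. Within set 1 the value table gave 0.28 for Mcm4, 0.27 for Mcm5 and 0.16 for Mcm7, from 2 aldosterone and 3 untreated hearts. Within set 2 it gave 0.01, 0.03 and -0.01, from 3 aldosterone and 2 untreated hearts. Mcm2 gave 0.08 in set 1 and -0.20 in set 2, and Mcm3 gave 0.35 and 0.19. The difference of Mcm6 was likewise larger in set 1. Outside the ring, Cdt1 and Mcm10 had the larger difference in set 1, and Cdc6 and Gins2 in set 2. Whether the sets themselves account for these differences in size was not tested.

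Mcm2, the subunit with the smallest difference, had -1.39, -1.33, -1.31, -1.06 and -1.39 in aldosterone hearts 1 to 5, against -1.22, -0.93, -1.38, -1.69 and -1.21 in untreated hearts 1 to 5. The untreated hearts spanned the whole aldosterone range. The difference was -0.01 in both sources, with a 95% interval of -0.31 to 0.28 in the value table and -0.23 to 0.21 in the scanner files.

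Cdc6 and Cdt1 bring the helicase ring to the origin. Cdt1 had -2.03, -2.18, -2.18, -2.12 and -2.17 in aldosterone hearts 1 to 5, against -2.35, -2.41, -2.42, -2.62 and -2.15 in untreated hearts 1 to 5. The 5 aldosterone hearts lay close together, and of the untreated hearts only untreated 5 reached them. The difference was 0.25 (SE 0.08, limma adjusted p = 0.454) in the value table and 0.23 (SE 0.08, limma adjusted p = 0.645) in the scanner files.

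Cdc6 was at the limit of what the arrays could measure. Its kept probe was well above background on 4 of 4 aldosterone arrays and on 1 of 5 untreated arrays, so it passed the filter through the aldosterone group alone. The Cy5 signal was 71, 78, 73 and 80.5 units on the aldosterone arrays and 66, 70, 71, 68 and 69 units on the untreated arrays, which is 1.15 to 1.39 times the local background. In the value table the log2 ratio was -1.53, -1.87, -2.11, -1.91 and -1.62 in aldosterone hearts 1 to 5, against -2.26, -2.69, -2.11, -2.27 and -2.93 in untreated hearts 1 to 5. The groups did not overlap, but aldosterone 3 and untreated 3 were equal to 2 decimals. The difference was 0.65 (SE 0.17, limma adjusted p = 0.288) there and 0.05 (SE 0.08, limma adjusted p = 0.999) in the scanner files. The constant of 50 units that was added to each corrected scanner signal is larger than the signal of this spot over its background, and it draws the ratios of such dim spots together. With a constant of 16 units the difference was 0.12, and with Agilent's own processed signals it was 0.69. The cause of the gap between 0.65 and 0.05 was not tested. A second Cdc6 probe was well above background on 2 of 4 aldosterone arrays and 1 of 5 untreated arrays and was not tested. Its log2 ratio in the value table was -0.85, -0.62, -1.03, -1.80 and -1.70 in aldosterone hearts, against -2.35, -0.30, -2.17, -1.80 and -1.99 in untreated hearts, where untreated 2 was the highest of all 10.

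**Figure D2:**
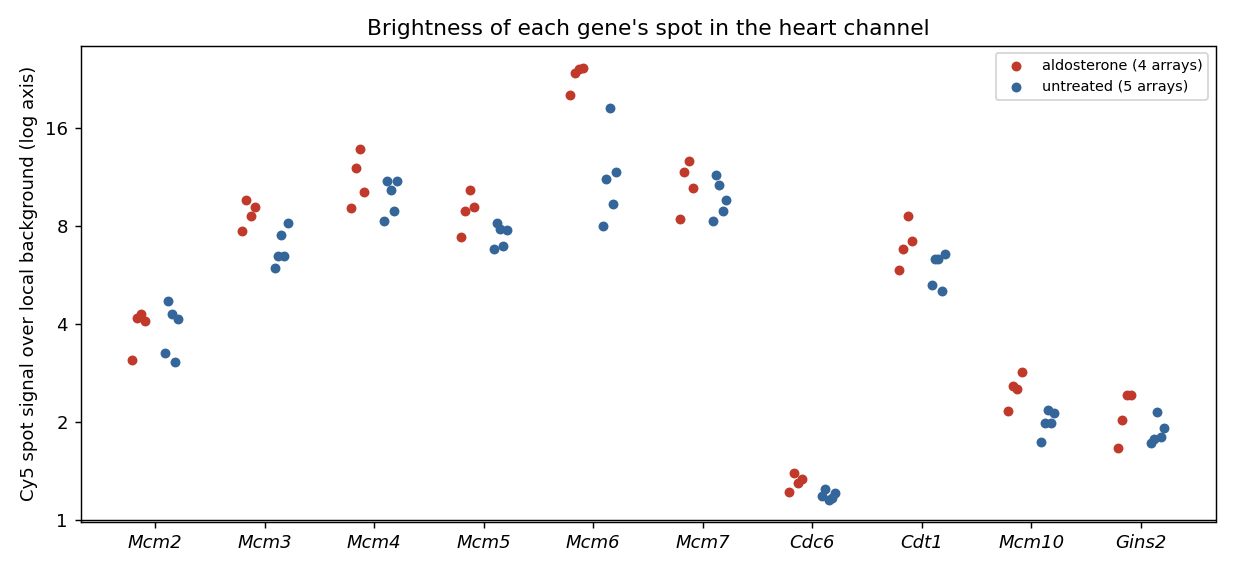
Cy5 spot signal divided by its local background (vertical log axis) for the kept probe of each gene, with 4 aldosterone arrays in red to the left and 5 untreated arrays in blue to the right. Mcm6 spots run from 7.98 to 24.5 times the background, and Cdc6 spots stay between 1.15 and 1.39 times.

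Mcm10 and Gins2 act after the ring is loaded. Mcm10 helps the loaded helicase start to unwind, and Gins2 is a subunit of the GINS complex, which joins the helicase as it becomes active. Mcm10 had -2.43, -2.55, -2.75, -2.41 and -2.28 in aldosterone hearts 1 to 5, against -3.25, -3.10, -3.11, -3.02 and -2.84 in untreated hearts 1 to 5. All 5 aldosterone hearts lay above all 5 untreated hearts in the value table. The difference was 0.58 (SE 0.10), or 1.49-fold, and missed the threshold (limma adjusted p = 0.0742). In the scanner files the ranges overlapped at their ends, with aldosterone arrays from -2.34 to -2.00 and untreated arrays from -2.55 to -2.32, and the difference was 0.29 (SE 0.08, limma adjusted p = 0.486). The Mcm10 spot was dim too, at 1.74 to 2.84 times its local background, and Agilent's processed signals of the same 9 arrays gave 0.59. With the local backgrounds of all 9 arrays left as given the difference was 0.06. In that setting the untreated arrays spread from -2.54 to -1.17, with a median of -2.36. Their SD was 0.56 there, against 0.10 with stray backgrounds replaced. Gins2 had -0.24, 0.11, -0.11, -0.03 and 0.46 in aldosterone hearts, against -0.05, -0.43, 0.22, -0.45 and -0.30 in untreated hearts, so the groups overlapped. The difference was 0.24 (SE 0.16, limma adjusted p = 0.783) in the value table and 0.02 (SE 0.07, limma adjusted p = 1.00) in the scanner files.

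Over the 9 genes other than Mcm6, 0 passed an adjusted p of 0.05 with limma in either source. Across all 22016 genes tested, 0 (0%) passed in the scanner files and 37 (0.168%) in the value table. Cdc6 was kept through the aldosterone arrays, so it is left out of the counts that follow. They cover the 8 other genes and, beside them, the 21379 tested genes whose probe was well above background on no fewer than 2 of 4 aldosterone and 3 of 5 untreated arrays, a rule added after the values were seen. At an unadjusted p under 0.05, 3 of the 8 were higher with aldosterone in the scanner files, against 4.22% of these genes, and 3 of the 8 in the value table, against 4.7%. At that level 0 of the 8 were lower, against 2.05% in the scanner files and 3.16% in the value table. Differences were above 0 for 7 of the 8 in both sources, against 52.2% of genes in the scanner files and 49.7% in the value table. Every aldosterone heart lay above every untreated heart for 0 of the 8 in the scanner files, against 1.47% of genes, and for 1 of the 8 in the value table, Mcm10, against 1.3%. The reverse, with every aldosterone heart lower, occurred for 0 of the 8, against 0.637% of genes in the scanner files and 0.557% in the value table. The median difference of the 8 was 0.17 in the scanner files and 0.21 in the value table, and the median of all these genes was 0.0048 and -0.00092. The 8 genes were chosen with earlier results of these data known, which limits what these counts can show.

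**Figure D3:**
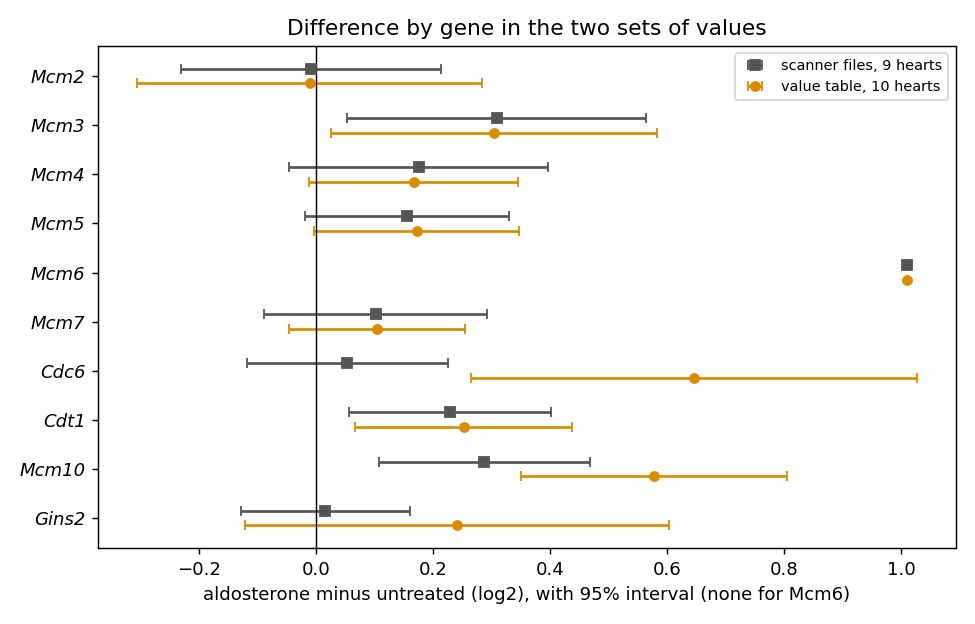
Aldosterone minus untreated difference in log2 ratio (horizontal axis) for each gene, with its 95% interval from limma for every gene but Mcm6, which was chosen for its pattern; squares are the scanner files of 9 hearts and circles the value table of 10 hearts. Both sources place Mcm6 at 1.01 and Mcm2 at -0.01, and they part for the dim spots of Cdc6, Mcm10 and Gins2.

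Slide by slide, the 9 genes fell into those that were above 0 on every slide and those that were not. Mcm3, Mcm4 and Mcm10 were above 0 on 4 of 4 slides in both sources, with Mcm10 between 0.26 and 0.75 in the value table. For Mcm3 the lowest slide in the scanner files was at only 0.00084. The share of all genes above 0 on 4 of 4 slides was not counted. Mcm5 and Cdc6 were above 0 on 4 slides in the value table and 3 in the scanner files. Cdt1 was above 0 on 3 slides in the value table and 4 in the scanner files, and Mcm7 on 3 in both. Mcm2 and Gins2 were above 0 on 2 of 4 slides in both sources. Mcm2 ranged from -0.32 to 0.38 in the value table. Within the sets of hearts Mcm10 gave 0.61 in set 1 and 0.51 in set 2, while Cdc6 gave 0.35 and 1.04.

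Across the 10 hearts of the value table the helicase subunits other than Mcm6 varied together to different degrees. The tightest pair was Mcm5 with Mcm7 (Pearson r = 0.91 over 10 hearts), and after the group means were taken out it was 0.88. The 10 pairs among Mcm2, Mcm3, Mcm4, Mcm5 and Mcm7 had a median r of 0.55 and, within groups, 0.62. The lowest of these was Mcm2 with Mcm3 at -0.07. The 5 pairs of Mcm6 with the other subunits had a median r of 0.48 and, within groups, -0.01. Mcm6 was closest among the 10 genes to Mcm10, with r = 0.90 over the 10 hearts and 0.43 within groups. These values are descriptions, since all hearts share the pooled reference, the array and the sets named above.

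The 6 genes outside the 10 whose log2 ratio followed Mcm6 most closely over the 10 hearts were Kntc1, Exo1, BC018473, Trip13, Pask and Plat, with Pearson r between 0.957 and 0.964. Kntc1 encodes a kinetochore protein, Exo1 an exonuclease of DNA repair, Trip13 an ATPase of the spindle checkpoint, Pask a protein kinase and Plat tissue plasminogen activator. Exo1 averaged -1.21 with aldosterone and -2.16 without. Kntc1 was well above background on 4 of 4 aldosterone arrays and 1 of 5 untreated arrays. The 6 closest to the mean of Mcm2 to Mcm7 were Fam216a, Septin11, Snx1, Knl1, Cd302 and Rbms1, with r between 0.940 and 0.955. Knl1, a scaffold of the kinetochore, was well above background on 4 of 4 aldosterone arrays and 0 of 5 untreated arrays. Snx1, an endosomal sorting protein, averaged -0.56 with aldosterone and -0.65 without. Each r spans both groups and so holds the difference between them, and the mean of Mcm2 to Mcm7 includes Mcm6. These genes were picked by their likeness, and no test was made of it.

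The rest of the replication pathway was read from lists of 60 genes, chosen with earlier results of these data known. Of the 55 tested, 53 were well above background in both groups by the rule above and are counted here. By the value table, 32 were above and 21 below 0, with 1 passing the test. At an unadjusted p under 0.05, 13 were higher and 1 lower. The scanner files had 39 above and 14 below 0, with 0 passing. There 12 were higher and 1 lower at an unadjusted p under 0.05. The shares over all genes are those given for the licensing genes. The count above 0 is thus set against 49.7% in the value table and 52.2% in the scanner files. At an unadjusted p under 0.05, the higher count is set against 4.7% and 4.22%, and the lower count against 3.16% and 2.05%. The median of the 53 was 0.07 in the value table and 0.08 in the scanner files. The 5 genes tested that recognise origins had differences from -0.06 to 0.12 in the value table. Orc6, a subunit of the origin recognition complex, differed by 0.11 in both sources (limma adjusted p = 0.827 in the value table). Orc1 was well above background on no array and was not tested. Cdc45, which completes the active helicase, differed by -0.01 in the value table and 0.03 in the scanner files. Gins1 differed by 0.10 and 0.09. Gins4, another GINS subunit, named after its value was seen, differed by -0.25 in the value table (limma adjusted p = 0.423). Dbf4, the activator of the kinase Cdc7, differed by 0.27 and 0.02, with spots well above background on 2 of 5 untreated arrays. Gmnn, which encodes the Cdt1 inhibitor geminin, differed by 0.30 and 0.27, with hearts of either group overlapping.

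Of 20 fork genes counted, 12 were above 0 in the value table and 14 in the scanner files. Pcna, the sliding clamp, differed by 0.15 (limma adjusted p = 0.553) in the value table and 0.20 (limma adjusted p = 0.572) in the scanner files. Rfc4, a subunit of the clamp loader, differed by -0.01 and 0.0046, and Pola1, of the primase complex, by 0.18 and 0.12. Pole2, a subunit of DNA polymerase epsilon, was the 1 pathway gene that rose, by 0.64 (SE 0.09, limma adjusted p = 0.0396) in the value table, and it was picked out after its value was seen. It kept that call under 4 of 18 alternatives, with adjusted p up to 0.316, and differed by 0.15 (limma adjusted p = 0.755) in the scanner files. Among these alternatives, the fit without aldosterone 4 and the fit of the hearts with a scanner file are the same.

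Of 6 genes of deoxynucleotide supply, 4 were above 0 in the value table, and of 10 genes of E2F and cyclin E control, 6 were, with 0 of either list passing the test and 3 and 4 higher at an unadjusted p under 0.05. Rrm2, of ribonucleotide reductase, averaged -2.43 ± 0.09 in aldosterone hearts and -2.90 ± 0.25 in untreated hearts of the value table (SD, n = 5 each), without overlap, a difference of 0.48 (limma adjusted p = 0.226). Tk1, thymidine kinase, differed by 0.39 (limma adjusted p = 0.162) in the value table and 0.30 (limma adjusted p = 0.582) in the scanner files, also without overlap. E2f1 differed by 0.35 (limma adjusted p = 0.226) in the value table and 0.21 (limma adjusted p = 0.602) in the scanner files. Those below 0 in the value table included Tyms, thymidylate synthase, at -0.02 and Rb1, the retinoblastoma gene, at -0.09, both named after their values were seen. Ccne1, a cyclin E gene, differed by -0.08 and -0.06, and Ccne2 was well above background on no array.

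**Figure D4:**
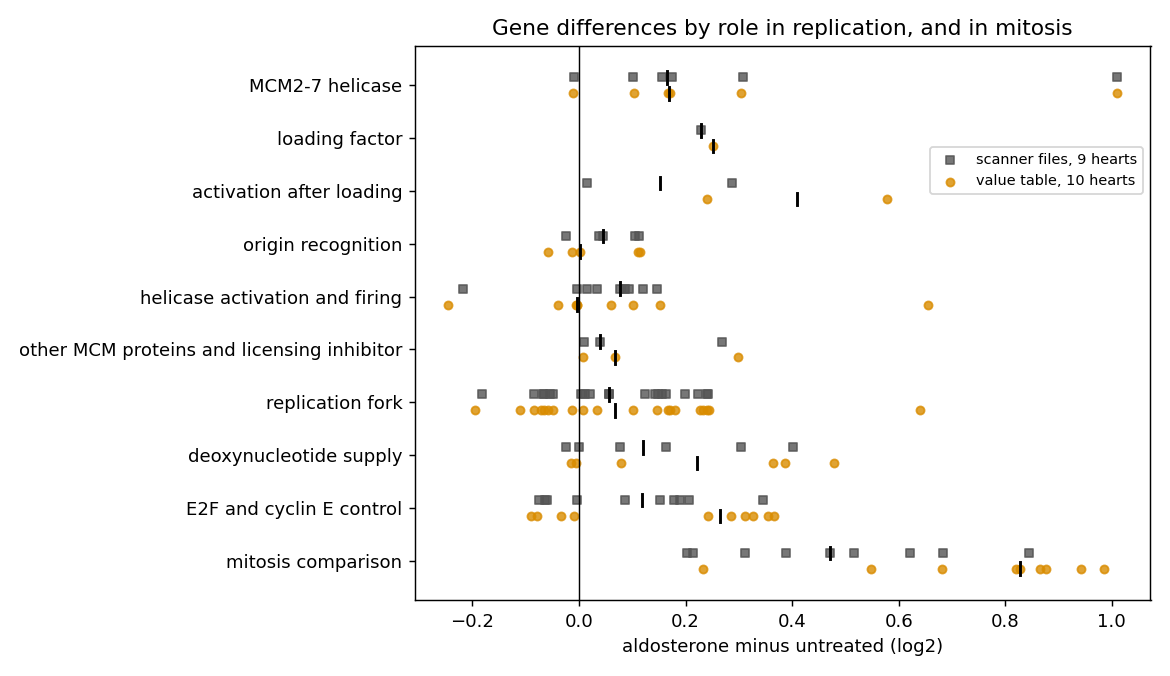
Aldosterone minus untreated difference in log2 ratio (horizontal axis) for the genes of each role (rows) that were well above background in both groups, which leaves out Cdc6, Dbf4, Dna2 and Bub1, with squares for the scanner files, circles for the value table and black ticks for the median of each row. Mcm6, at 1.01, lies outside the span of the other licensing and replication genes, while the mitosis list has a median of 0.83 in the value table and 0.47 in the scanner files.

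A list of 11 mitotic genes was set beside the licensing genes, and 9 of them were well above background in both groups. The list was chosen with earlier results of these data known, so the shares over all genes are no fair yardstick for it. Bub1 was above background on 4 of 4 aldosterone arrays and 0 of 5 untreated arrays and is not counted. All 9 differences were above 0 in both sources, with medians of 0.83 in the value table and 0.47 in the scanner files. Every aldosterone heart lay above every untreated heart for 8 of the 9 in the value table, against 1.3% of genes, and for 7 in the scanner files, against 1.47%. At an unadjusted p under 0.05, 8 of the 9 were higher in either source, against 4.7% of genes in the value table and 4.22% in the scanner files. By the value table, 3 rose past the test over all 22016 genes, against 0.15% of these, and in the scanner files 0 did. The 3 were Cdk1 by 0.99, Birc5 by 0.83 and Plk1 by 0.55, named after their values were seen, with limma adjusted p between 0.0396 and 0.0471. Cdk1 and Birc5 have 3 probes each, and these values are from 1 probe. With the mean of a gene's kept probes, Cdk1 differed by 0.53 (limma adjusted p = 0.0677) and did not pass. Birc5 differed by 0.83 (limma adjusted p = 0.0364) and passed. The count of 3 turned to 8 without untreated 5 and to 0 without any one of the other 9 hearts. It was also 0 with the replicate number, the slide or the set of hearts as a block, and 0 with no filter on dim probes. With columns centred on their medians it was 1. Where a fit kept only genes above background in both groups by the rule above it was 2. It stayed at 3 where a probe had to be well above background on all 9 arrays. Mki67, the proliferation marker, averaged -2.78 ± 0.13 in aldosterone hearts and -3.66 ± 0.36 in untreated hearts of the value table (SD, n = 5 each), a difference of 0.88 (limma adjusted p = 0.0812). No test was made of a difference between the mitotic and the licensing genes.

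In whole ventricle, more cells of one type and more RNA per cell cannot be told apart. Fibroblast markers were above 0 for 8 of 8 genes, with list means of 0.57 to 1.07 in aldosterone hearts and 0.21 to 0.88 in untreated hearts of the value table. Erythroid markers were above 0 for 4 of 4 tested, with list means of -2.19 to -1.72 in aldosterone hearts and -3.16 to -2.22 in untreated hearts, which do not overlap. Of the erythroid genes, Alas2 differed by 0.75, Hbb-b2 by 0.99 and Hba-a1 by 0.03. Macrophage markers were above 0 for 5 of 5 tested, Adgre1 by 0.55, and the list means overlapped, at -1.63 to -1.05 in aldosterone hearts and -2.05 to -0.94 in untreated hearts. Cardiomyocyte markers were above 0 for 4 of 7. Their list means also overlapped, at 1.58 to 2.02 in aldosterone hearts and 1.56 to 1.90 in untreated hearts. Smooth muscle markers were above 0 for 6 of 6, with a median difference of 0.09, endothelial markers for 2 of 6 and lymphocyte markers for 1 of 5 counted. These counts are from the value table, where 49.7% of genes were above 0. In the scanner files, where 52.2% were, macrophage markers were above 0 for 4 of 5. Smooth muscle markers were so for 4 of 6 and cardiomyocyte markers for 3 of 7, and the other counts were the same. The marker lists too were chosen with earlier results of these data known. The part of these cell types in the licensing values was not tested.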

How the data were processed

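Ventricle RNA of 10 mice was measured on 2-colour arrays. The deposited scanner files of 9 arrays give a median spot intensity and a local background for each channel, and Agilent Feature Extraction 10.7.3.1 is named in the submitters' processing notes. Their log ratio is on the log10 scale with Cy5 on top, per the file headers. The value table deposited by the authors gives 1 log2 ratio a probe in 10 hearts. Array by array it matched the scanner log ratio, put on the log2 scale, with Pearson r of 0.996 to 1.00 and slopes of 1.00, so scale and direction were known. No centring was seen, with column medians of -0.01 to 0.12, and the table was tested as deposited.

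For the scanner fit, a local background over 20 units away from its array's median was set to that median, which changed 0 to 85 Cy5 spots per array. Signals were corrected with normexp (offset 50) and normalised by loess, control spots having weight 0 and outlier spots being left out (R 4.3.3, limma 3.58.1). A probe was kept where Cy5 was well above background on 4 arrays or more, and a gene took its kept probe of highest mean signal. Both sources were fitted with limma (lmFit and eBayes) in two-sided tests. P-values were adjusted by the Benjamini-Hochberg method across the 22016 genes, with a threshold of 0.05. The number of arrays limits the precision.

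Accessions were named through RefSeq gene records, which covered 26581 of 39429 probes. The text names the 10 genes, a set list of pathway genes, and the 6 genes most like Mcm6 and the 6 most like the mean of Mcm2 to Mcm7, and gives other lists as counts. The members and lists were chosen with earlier results of these data known.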

Additional observations from a re-analysis of the deposited data

Results flagged for a closer look

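Among 40 groups of hearts examined for the 10 genes, 3 held a heart far from the others, where chance alone gives about 1 in 20. Mcm3 in untreated 5 had a log2 ratio of -1.40 in the scanner files, where the nearest of the other untreated hearts was at -1.79. The same heart had -1.26 for Mcm3 in the value table, and the nearest was at -1.69. Mcm2 in aldosterone 4 had -1.06 in the value table, and the nearest aldosterone heart was at -1.31.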

How the results depend on the processing

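Of the 9 genes tested, 0 passed an adjusted p of 0.05 under the 23 alternatives for the scanner files and the 19 for the value table, wherever each could be tested. Mcm6 stayed between 0.87 and 1.10 in the scanner files and between 0.90 and 1.11 in the value table. The adjusted p of Mcm10 in the value table ranged from 0.0521 to 0.394. Mcm3, Mcm4, Mcm5, Mcm7, Mcm10 and Cdt1 kept their direction under all of these alternatives. Mcm2, close to 0, changed sign in the scanner files to 0.0033 with no background correction and 0.014 with slide as a block. With 1 heart left out at a time it ranged from -0.085 to 0.060 in the scanner files and from -0.11 to 0.079 in the value table. In the scanner files Cdc6 changed sign to -0.011 with all local backgrounds as given, and with 1 heart left out it ranged from -0.0061 to 0.11 and Gins2 from -0.016 to 0.054. Cdc6 gave 0.69 with processed signals and 0.70 with Cy5 alone, and Mcm10 gave 0.59 and 0.53. Cdc6 could not be tested where Cy5 had to be above background on all 9 arrays or under the filter on each group, and Aquantile leaves ratios as they were by construction. The genes called over the whole array numbered 0 in the scanner files, with 7 for processed signals, 6 for Cy5 alone, 8 with the sets of hearts as a block and 0 to 11 with 1 heart left out. In the value table they numbered 37, with 8 for no filter, 23 for the strict filter, 24 for the filter on each group that was added after seeing the data, 12 with the sets as a block, 0 with slide as a block and 2 to 51 with 1 heart left out. Same-numbered hearts had correlations of -0.34 to 0.35 in the scanner files and -0.21 to 0.28 in the value table, so the numbers do not pair them. With the replicate block 0 of the 9 genes passed in either source, and over the whole array 2 genes passed in the scanner files and 0 in the value table. Cdc6, Mcm10 and Gins2 had the dimmest spots of the 10 genes, and the causes of the shifts between settings were not tested.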
